A study of Danio rerio with 8 samples.

Results

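The 9 genes described here, he1.1, ctsla, ctslb, agr1, cd63, xbp1, klf17, foxa3 and bambia, mark the hatching gland of the zebrafish or its forerunner, the polster. They were taken by symbol, with earlier results of these data known, from the 32520 genes of the deposited table. The 9 symbols stand for 12 entries, because 4 entries carry the symbol ctslb, and for ctslb the entry with the highest mean was taken as the member. RNA came from whole AB embryos with their yolk. Embryos of the treated group were kept from 2 hpf (hours post fertilization) in E3 medium with 100 µg/ml of KT09. KT09 is an ethanolic extract of Mahonia bealei stems, and its stock solution was made with DMSO. Controls had the same solvent, at 0.5%, in E3 without extract. The paper names 0.5% as the highest solvent level it used, and the DMSO content of the KT09 medium is not given. Each group had 4 pools of 75 embryos, raised 25 to a well, and the labels give 8 hpf for the collection, while the discussion of the paper gives a later time. Delayed epiboly was described for this dose, so that a difference in stage at collection and the treatment cannot be told apart.

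The polster is the anterior part of the prechordal plate, the mesendoderm that leaves the organizer first during gastrulation and moves towards the animal pole. Its cells become the hatching gland, a sheet of secretory cells over the anterior yolk that stores proteases in granules and later releases them to digest the chorion. The Krüppel-like factor Klf17 is known in zebrafish for its role in polster cells, Xbp1 is the transcription factor of the unfolded protein response that prepares secretory cells for their load, and Agr1 is a protein disulfide isomerase of the endoplasmic reticulum (ER). At gastrula stages the protease genes are only beginning to be expressed in these cells, and several of them are also supplied maternally or expressed in other tissues. In RNA from whole embryos, fewer cells of a type and less RNA per cell cannot be told apart.

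The deposited values are the authors' means over each group of read counts divided by size factors, here called normalised read counts. They are not divided by gene length, so levels are compared between groups and not between genes. The digits of these means fixed the whole reads of every pool for 23331 of 24289 genes (96.1%) with a group mean of at most 2000, among them he1.1, all 4 ctslb entries, agr1 and cd63. The order of the pools cannot be read from the means. Pools are numbered here by relative depth within a group, from the deepest to the shallowest, and these numbers are not the replicate numbers of the labels. Relative depth was 0.980 to 1.16 in KT09 pools and 0.820 to 1.14 in control pools, and the group means summed to 1.69e+07 in KT09 embryos and 1.62e+07 in control embryos.

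Some pools stood nearer to the other group than the rest. Across 13053 genes with a mean of 10 or more and known reads, control pool 4 had a correlation of log2 values of 0.863 to 0.938 with the KT09 pools and of 0.933 to 0.947 with the other control pools. KT09 pool 1 had 0.936 to 0.951 with the other KT09 pools and 0.897 to 0.925 with the control pools. Of the KT09 pools, pool 1 had the highest correlation with control pools 1 to 3, and pool 2 had the highest with control pool 4 (0.938). KT09 pool 2 had lower correlations with KT09 pool 3 (0.929) and KT09 pool 4 (0.936), and a higher one with KT09 pool 1 (0.951). The labels of replicate 4 in each group hold a library name with the code of the other group, while title and treatment agree. No pool went against its group in hoxb9a, a trunk hox gene that split the groups widely, with at most 11.2 normalised reads in KT09 pools and at least 81.7 in control pools. hoxb9a was picked for that split and is given as a description. For he1.1, the ctslb entries and their neighbours, values without KT09 pool 1 and control pool 4 are given below. These 2 pools were chosen after the values were seen. Leaving out the highest KT09 pool or the lowest control pool of a gene widens its difference by construction. Calls gained in this way are therefore no support for a fall.

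Of the 9 genes, 4 had a KT09 mean over 1.5-fold lower than the control mean. These were he1.1, ctslb, agr1 and cd63. None was over 1.5-fold higher, and the other 5 (ctsla, xbp1, klf17, foxa3 and bambia) lay within 1.5-fold, each with the higher mean in KT09 embryos. Among the 15888 genes whose mean over all pools was at least 10, 15.1% were over 1.5-fold lower and 13.8% over 1.5-fold higher, 28.9% together. The median log2 ratio was 0.19 over the 9 genes and 0.01 over the 15888 genes. All 9 genes reached the mean of 10, he1.1 only through the control group. By their known products, he1.1 and ctslb encode proteases, agr1 an ER protein, cd63 a tetraspanin, xbp1, klf17 and foxa3 transcription factors, bambia a membrane inhibitor of BMP signalling and ctsla a lysosomal protease.

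**Figure D1:**
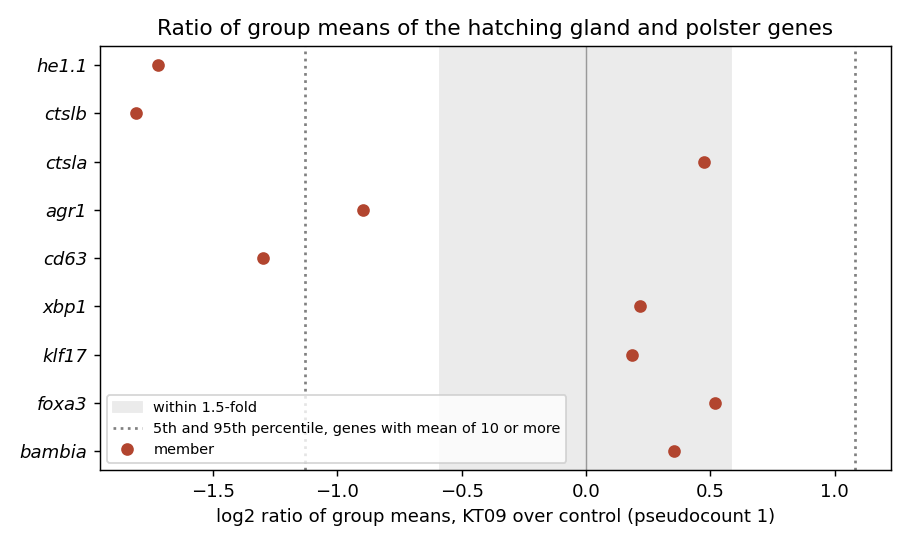
Ratio of the authors' group means on a log2 scale, KT09 over control, for the 9 genes, with a pseudocount of 1. The grey band spans 1.5-fold in each direction and the dotted lines the 5th and 95th percentile (-1.13 and 1.08) over 15888 genes whose mean was at least 10; he1.1, ctslb and cd63 lie below the 5th percentile and 5 genes lie in the band.

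The hatching enzyme gene he1.1 encodes the astacin metalloprotease that digests the chorion. Its reads were few: 5, 0, 15 and 5 reads in KT09 pools 1 to 4, against 38, 29, 21 and 3 reads in control pools 1 to 4. As normalised read counts these were 4.29, 0, 14.7 and 5.10 in KT09 pools, against 33.2, 29.6, 21.7 and 3.66 in control pools. The count of 0 in KT09 pool 2 allows up to 2.87 normalised reads (3 reads, counting error only). Control pools 1 to 3 were above every KT09 pool, while control pool 4 fell among the KT09 pools, so that the groups overlapped. The authors' mean was 6.02 in KT09 embryos and 22.1 in control embryos, a 3.66-fold lower level with KT09. The difference did not pass the test over all pools (limma log2 difference -1.94, standard error 0.87, adjusted p = 0.11). The two-sided exact permutation test gave p = 0.114, where the smallest p that 4 against 4 pools allow is 0.0286. Without control pool 4 the log2 difference was -2.60 with an adjusted p of 0.033 (limma), the only left-out pool that brought he1.1 past the threshold. Without KT09 pool 1 as well it was -2.65 (adjusted p = 0.0476). Over the 8 fits that left out a single pool it ranged from -2.60 to -1.20, nearest to 0 without KT09 pool 2, the pool with no read (adjusted p = 0.224).

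The other genes of the he1 cluster and of its relatives were hardly expressed at this stage. The authors' mean of he1.2 was 1.86 in KT09 embryos and 1.86 in control embryos. Its neighbour he1.3 had 0.215 in KT09 embryos and 0.77 in control embryos. Of the related astacin genes, c6ast3 had 2.13 in KT09 embryos and 1.26 in control embryos, c6ast4 had 0.674 in KT09 embryos and 0.218 in control embryos, hce2l2 had 0.255 in KT09 embryos and 0.259 in control embryos, and hce2l1 was listed at 0 in each group. In single pools these genes had at most 5 reads, and no fold is given for them.

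The cathepsin L gene ctslb, first described in zebrafish as hatching gland gene 1 (hgg1), encodes a cysteine protease of the gland. The deposited table gives this symbol to 4 entries. The gene name table used here calls ENSDARG00000074306 ctslb and ENSDARG00000095072 si:dkey-26g8.4, a separate gene, and was not matched by ENSDARG00000039173 and ENSDARG00000087651, so that which entry is the gene known as hgg1 is uncertain. The member entry (ENSDARG00000039173) had 626.9, 177, 203.6 and 241.8 normalised reads in KT09 pools, against 1236, 1702, 905.4 and 531.9 in control pools. KT09 pool 1 was far above the other KT09 pools and exceeded control pool 4, and no other KT09 pool reached a control pool. The mean was 312 ± 211 in KT09 pools and 1094 ± 497 in control pools (SD, n = 4 each), 3.5-fold lower with KT09. ctslb fell in the limma test (log2 difference -1.88, standard error 0.42, adjusted p = 0.00787), while the exact permutation test gave p = 0.0571. The call held in each of 8 fits that left out a single pool, with log2 differences of -2.28 to -1.63 and adjusted p of 0.00128 to 0.0256. Together with agr1 and cd63 below, 3 of the 4 members with known reads passed as lower, beside 19.1% of the 13053 genes tested (34% when either direction is counted).

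**Figure D2:**
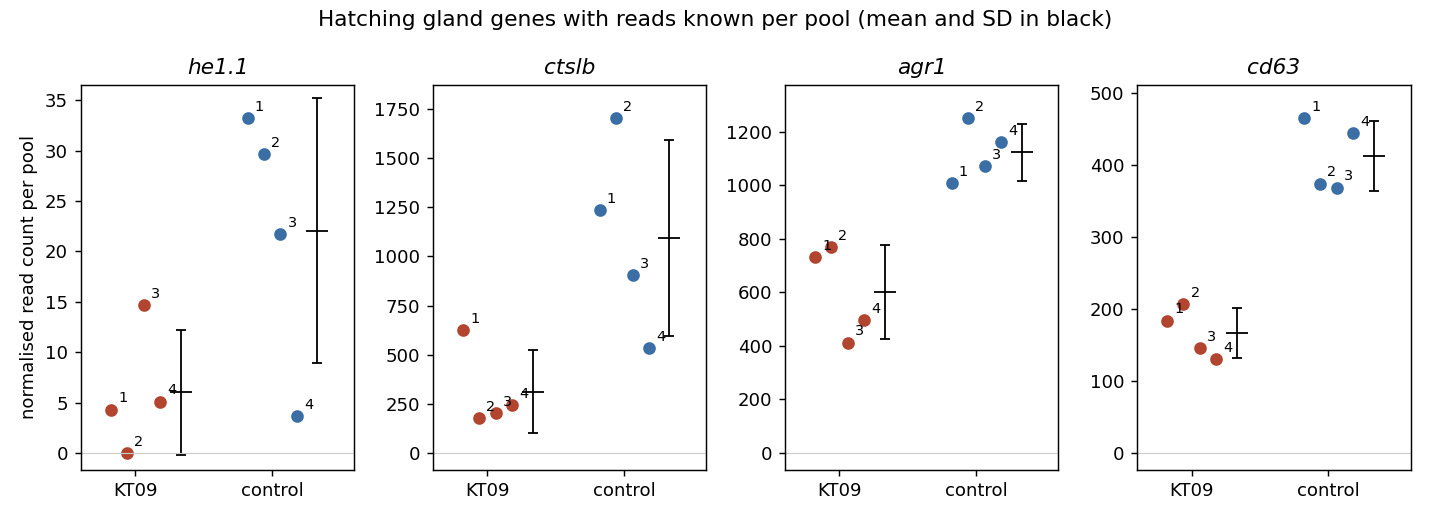
Normalised read counts of he1.1, ctslb, agr1 and cd63 in the 4 KT09 pools and the 4 control pools, each point a pool with its number, and the mean with SD in black. In he1.1 and ctslb control pool 4 (3.66 and 531.9) lies below the highest KT09 pool (14.7 and 626.9), whereas in agr1 and cd63 every KT09 pool lies below every control pool.

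The other 3 entries under the symbol ctslb had the same order of means. ENSDARG00000095072 had 400.2, 83.3, 150.7 and 165.3 normalised reads in KT09 pools, against 695.4, 845.5, 553.6 and 75.6 in control pools. Here control pool 4 was the lowest of all 8 pools and the difference did not pass (limma log2 difference -1.22, adjusted p = 0.211). Without control pool 4 it was -2.01 with an adjusted p of 0.00741, and without KT09 pool 1 as well -2.42 with an adjusted p of 0.000458. ENSDARG00000087651 had 160.6, 38.3, 67.5 and 66.3 in KT09 pools, against 278.7, 344.5, 217.3 and 97.6 in control pools, and fell in the test (limma log2 difference -1.54, adjusted p = 0.0259). ENSDARG00000074306 had 38.6, 4.79, 19.6 and 0 in KT09 pools, against 82.1, 64.4, 73.5 and 51.2 in control pools, with no overlap (limma log2 difference -3.03, adjusted p = 0.0289). Its mean was 4.3-fold lower with KT09. The size of its log2 difference rested in part on KT09 pool 4, which had no read, a count that allows up to 3.06 normalised reads. Without that pool it was -2.02 (limma adjusted p = 0.0298). The calls of these last 2 entries did not hold in every fit that left out a pool, with adjusted p up to 0.0738 for ENSDARG00000087651 (without control pool 2) and up to 0.068 for ENSDARG00000074306 (without control pool 1). Without KT09 pool 1 and control pool 4 the log2 difference was -2.29 for ENSDARG00000087651 (adjusted p = 0.000595) and -3.91 for ENSDARG00000074306 (adjusted p = 0.0124). Summed over the 4 entries with the symbol in the deposited table, there were 1226, 303.4, 441.4 and 473.4 normalised reads in KT09 pools, against 2292, 2957, 1750 and 756.3 in control pools.

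In the gene order of the RefSeq assembly GRCz12tu, ctslb lies in a tandem array of cathepsin L genes. Among the 15 genes on either side, 5 that are in the deposited table carry ctsl as a synonym. They were looked at after the values of ctslb were seen. All 5 had a lower mean in KT09 embryos, by 2.47-fold to 3.72-fold, and 3 passed the test, where 19.1% of all genes tested were called lower. si:dkey-239j18.2 had 196.7, 59.3, 62.6 and 51.0 normalised reads in KT09 pools, against 396.6, 443.7, 281.4 and 197.6 in control pools (limma log2 difference -1.99, adjusted p = 0.00512). The log2 difference was -1.99 for si:dkey-269i1.4 (adjusted p = 0.00371) and -1.74 for si:dkey-26g8.5 (adjusted p = 0.00596). For zgc:174154 it was -1.76 (adjusted p = 0.0502) and for zgc:174855 -1.26 (adjusted p = 0.107), neither of which passed. For each symbol the entry with the highest mean was taken. A further entry of si:dkey-269i1.4, ENSDARG00000100833, had a limma log2 difference of -2.83 (adjusted p = 0.00456) and is left out of the counts here. Without KT09 pool 1 and control pool 4 all 5 genes with the synonym passed, zgc:174154 with -2.39 (adjusted p = 0.0109) and zgc:174855 with -2.17 (adjusted p = 0.00147). These pools were chosen after the values were seen, and leaving them out widens the difference by construction, so these calls are no support. Over these 5 genes and the 4 ctslb entries, KT09 pool 1 was the highest KT09 pool in 9 of 9, and control pool 4 the lowest control pool in 8 of 9. The sequences of these cathepsin L genes were not compared here. Reads may have been split or shared between them, so that their values are uncertain one by one and are not 9 independent measurements.

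**Figure D3:**
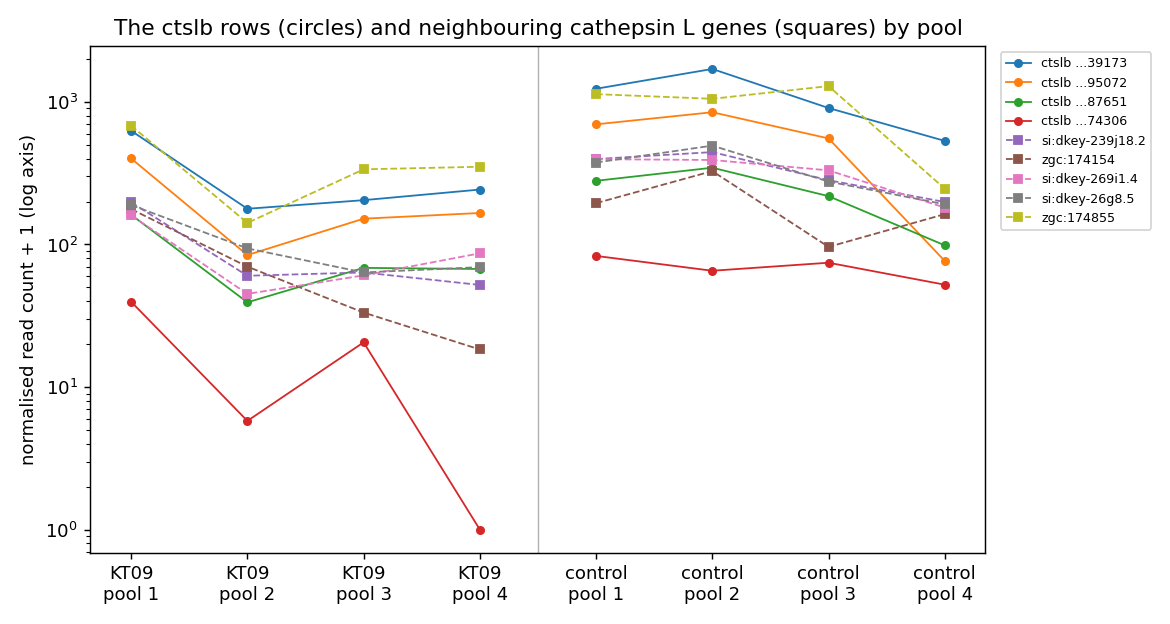
Normalised read counts plus 1 on a log axis in each pool for the 4 ctslb entries (circles, with the last digits of the identifier) and 5 neighbouring cathepsin L genes (squares). Lines join the values of a gene within a group and carry no order of pools; KT09 pool 1 is the highest KT09 pool in all 9 and control pool 4 the lowest control pool in 8 of them.

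The second cathepsin L gene, ctsla, is expressed widely and supplied maternally. Its authors' mean was 47724 in KT09 embryos and 34368 in control embryos, 1.39 times the control level (log2 ratio 0.47). Its reads per pool were not computed, and no spread or test can be given. Another abundant cathepsin L gene, ctsll, had 17139 in KT09 embryos and 14929 in control embryos. Of 10 other cathepsins and lysosomal proteases with a mean of 10 or more, none was past 1.5-fold, beside 28.9% of all genes with that mean. The abundant ctsba, ctsc and ctsa, all lysosomal enzymes, had KT09 means of 1.48, 1.33 and 1.38 times the control mean, without a test. Of the 5 with known reads, lgmn, which encodes the protease legumain, rose (limma log2 difference 0.30, adjusted p = 0.0159) and ctsf fell (-0.51, adjusted p = 0.0197). ctsf did not pass without KT09 pool 4, control pool 1 or control pool 2 (adjusted p up to 0.061). ctslb and its 5 neighbours with the synonym ctsl thus had lower means while ctsla and the 3 abundant lysosomal enzymes had higher means in KT09 embryos.

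agr1 had 732.5, 769.4, 412.1 and 495.8 normalised reads in KT09 pools, against 1008, 1250, 1073 and 1161 in control pools. Every KT09 pool was below every control pool, and control pool 4, low in he1.1 and ctslb, was the second highest here. The mean was 602.5 ± 175 in KT09 pools and 1123 ± 105 in control pools (SD, n = 4 each), 1.86-fold lower with KT09. agr1 fell (limma log2 difference -0.94, standard error 0.18, adjusted p = 0.00424), and the exact permutation test gave p = 0.0286, the smallest it can give. All KT09 pools lay below all control pools in 18.9% of the 13053 genes. Leaving out single pools moved the log2 difference between -1.07 and -0.78 and kept the call in 8 of 8 fits. Its relative txndc12, another thioredoxin-domain protein of the ER, also fell (limma log2 difference -0.88, adjusted p = 0.000776), with 535.9, 466.1, 360.2 and 415.2 in KT09 pools, against 824.7, 869, 788.5 and 766.1 in control pools. agr2, the other relative, had an authors' mean of 3.90 in KT09 embryos and 1.13 in control embryos, too low to be tested.

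cd63 encodes a tetraspanin of late endosomes and secretory granules. It had 183.8, 206.7, 145.8 and 130.6 normalised reads in KT09 pools, against 464.7, 374.2, 368.4 and 444 in control pools. The groups were far apart compared with the spread within them, and control pool 4 was the second highest pool. The mean was 167 ± 34.8 in KT09 pools and 413 ± 48.8 in control pools (SD, n = 4 each), 2.48-fold lower with KT09. cd63 fell (limma log2 difference -1.32, standard error 0.16, adjusted p = 0.000519), and the exact permutation p was 0.0286. It was called in 8 of 8 fits that left out a pool, with adjusted p of at most 0.00283. In agr1 and cd63 KT09 pools 1 and 2 lay above KT09 pools 3 and 4.

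Among 12 other tetraspanins with a mean of 10 or more, 4 were over 1.5-fold lower and 1 was over 1.5-fold higher. The shares over all genes with that mean were 15.1% and 13.8%. Of the 8 with known reads, 3 fell and 1 rose in the limma test, beside 19.1% and 14.9% of all genes tested. None rose without KT09 pool 3, KT09 pool 4, control pool 1, control pool 2 or control pool 3. The 4 largest changes of means were all downward. cd151l, known for binding integrins, had 140, 117.7, 96.9 and 83.7 in KT09 pools, against 215.8, 223.9, 184.2 and 179.3 in control pools (log2 difference -0.89, adjusted p = 0.00412). tspan3a had a log2 difference of -0.91 (adjusted p = 0.0149) and tspan4a one of -1.70 (adjusted p = 0.0243), while cd9a did not pass (log2 difference -0.67, adjusted p = 0.0522). The scarce tspan4a reached the mean of 10 only through the control group (4.89 in KT09 embryos, 15.7 in control embryos) and passed in 5 of 8 fits that left out a pool.

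xbp1 had an authors' mean of 7005 in KT09 embryos and 6028 in control embryos, 1.16 times the control level (log2 ratio 0.22). At this abundance the digits allowed 36 sets of reads even if no pool lay more than 1.5-fold from its group's mean. No values per pool are therefore given and no test was run. The genes around it were taken as a list of 22 unfolded protein response and ER genes, all with a mean of 10 or more. Here 5 were over 1.5-fold lower, 17 within 1.5-fold and 0 over 1.5-fold higher, with a median log2 ratio of -0.27. Over all genes with that mean, 15.1% were over 1.5-fold lower and 13.8% over 1.5-fold higher. Of 14 with known reads, 9 fell and 0 rose in the limma test, beside 19.1% and 14.9% of all genes tested. The co-chaperone gene dnajb9b, a known Xbp1 target in mammals, had 18.9, 57.4, 26.4 and 49.99 normalised reads in KT09 pools, against 131.9, 77.7, 168.7 and 100.0 in control pools (log2 difference -1.70, adjusted p = 0.00646). pdia4, an ER disulfide isomerase, had 160.6, 275.6, 177.2 and 229.5 in KT09 pools, against 383.5, 373.2, 555.6 and 448.9 in control pools (log2 difference -1.07, adjusted p = 0.00251). creb3l1, an ER-anchored factor for secretory genes, fell as well (log2 difference -0.97, adjusted p = 0.00374), as did dnajb9a (-0.88, adjusted p = 0.0372), which passed in only 2 of 8 fits that left out a pool. Not passing were edem1 (-0.03, adjusted p = 0.835), ern1 (0.004, adjusted p = 0.973) and herpud1 (0.17, adjusted p = 0.336). The same held for sdf2l1 (0.10, adjusted p = 0.563) and dnajc3a (-0.68, adjusted p = 0.0966). The abundant hspa5 and hsp90b1 had KT09 means of 0.90 and 1.04 times the control mean, without a test. The number of ER genes that fell depended on the pools used: it was 4 without KT09 pool 3, KT09 pool 4 or control pool 3, 5 without KT09 pool 1 or control pool 1, 6 without control pool 2, 7 without control pool 4 and 9 without KT09 pool 2, and in none of these fits did an ER gene rise. These genes work in all secretory cells, and their part in hatching gland cells was not measured. The xbp1 mean itself was not lower while some genes of its list fell and others did not pass. The plot of related genes shows both groups of genes.

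klf17 had an authors' mean of 3305 in KT09 embryos and 2905 in control embryos, 1.14 times the control level (log2 ratio 0.19). If no pool lay more than 1.5-fold from its group's mean, the digits left a single set of reads. That set was 3023, 3521, 3192 and 3486 normalised reads in KT09 pools, against 2823, 2718, 2944 and 3135 in control pools. The groups overlapped in this set, since KT09 pool 1 lay below control pool 4. The condition was met in KT09 pools by 98% and in control pools by 98.8% of 249 genes with a mean over 1000 and known reads. These genes had group means of at most 2000, below those of klf17. The condition cannot be checked for klf17, and no test was run. Of 15 other Krüppel-like factor genes with a mean of 10 or more, 4 were over 1.5-fold lower and 2 over 1.5-fold higher. The shares over all genes with that mean were 15.1% and 13.8%. Of 13 with known reads 3 fell and 3 rose, beside 19.1% and 14.9% of all genes tested. klf2a, known as a flow-responsive factor in endothelium, had 174.3, 259.3, 118.4 and 160.2 normalised reads in KT09 pools, against 1276, 1185, 1035 and 817.3 in control pools (limma log2 difference -2.63, adjusted p = 0.000124). klf12b (-2.02, adjusted p = 0.00296) and klf7b (-1.05, adjusted p = 0.00746) fell, and klf15 rose (0.95, adjusted p = 0.036). klf12b reached the mean of 10 only through the control group (4.71 in KT09 embryos, 22.3 in control embryos). klf15 passed in 2 of 8 fits that left out a pool, and the number of Krüppel-like factor genes that rose was 1 without KT09 pool 2, KT09 pool 4, control pool 1 or control pool 2.

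foxa3, a forkhead factor of the polster and the endoderm, had an authors' mean of 4497 in KT09 embryos and 3140 in control embryos, 1.43 times the control level (log2 ratio 0.52). Its digits allowed 2 sets of reads even under the same condition, so no pool values are given. Its relatives moved in different directions. foxa had 1168, 1073, 1421 and 1558 normalised reads in KT09 pools, against 559.1, 652.2, 652.9 and 595.3 in control pools, and rose (limma log2 difference 1.07, adjusted p = 0.000391). foxa2, which marks axial mesendoderm and floor plate, fell slightly (-0.30, adjusted p = 0.00882), and foxa1 did not pass (-0.28, adjusted p = 0.617).

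bambia encodes a BMP and activin pseudoreceptor, which binds ligand-bound receptors without signalling. Its authors' mean was 4947 in KT09 embryos and 3876 in control embryos, 1.28 times the control level (log2 ratio 0.35). Its digits allowed 3 sets of reads even under the condition used for klf17. The paralogue bambib was scarce and fell, with 27.5, 20.1, 18.6 and 29.6 normalised reads in KT09 pools, against 72.5, 70.5, 51.7 and 37.8 in control pools (limma log2 difference -1.23, adjusted p = 0.00702). Of 21 ligands, receptors, Smads and inhibitors of the pathway with a mean of 10 or more (bambib included), 3 were over 1.5-fold lower and 2 over 1.5-fold higher. The shares over all genes with that mean were 15.1% and 13.8%. Of 14 with known reads, 3 fell and 4 rose, beside 19.1% and 14.9% of all genes tested. The type I receptor gene bmpr1ba (-2.25, adjusted p = 0.000957) and the type II receptor gene bmpr2b (-1.80, adjusted p = 0.0107) fell, the second of which reached the mean of 10 only through the control group (8.84 in KT09 embryos, 28.6 in control embryos). The 4 that rose were bmp4 (limma log2 difference 0.68, adjusted p = 0.00398), smad7 (0.53, adjusted p = 0.0124), smad9 (0.42, adjusted p = 0.0154) and bmpr1ab (0.29, adjusted p = 0.0313). bmpr1ab passed in 2 of 8 fits that left out a pool. The ligand gene bmp7a had an authors' mean of 3241 in KT09 embryos and 1730 in control embryos, without a test.

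The regulators of the prechordal plate and anterior axis did not move in a single direction. Of 17 with a mean of 10 or more, 5 were over 1.5-fold lower and 3 over 1.5-fold higher. The shares over all genes with that mean were 15.1% and 13.8%. Of 10 with known reads, 3 fell and 4 rose, beside 19.1% and 14.9% of all genes tested. lhx1a, a LIM homeobox gene of the organizer, had 341.8, 594.3, 549.1 and 594.8 normalised reads in KT09 pools, against 133.7, 170.7, 186.3 and 225.7 in control pools (limma log2 difference 1.52, adjusted p = 0.000823). The organizer gene gsc also rose, with 693, 750.3, 944.5 and 865.1 in KT09 pools, against 660.4, 630.8, 581.5 and 474.5 in control pools (0.47, adjusted p = 0.0178), as did the Nodal ligand gene ndr2 (0.64, adjusted p = 0.00878) and the BMP inhibitor gene nog1 (0.32, adjusted p = 0.0471). nog1 passed in 1 of 8 fits that left out a pool, and gsc did not pass without KT09 pool 3 or KT09 pool 4 (adjusted p up to 0.0529). The number of regulators that rose was 2 when either of these pools was left out.

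The genes that fell were six3a and six3b of the anterior neural plate and the Wnt inhibitor gene dkk1b (-0.73, adjusted p = 0.0117). six3b, a homeobox gene of the forebrain and eye field, had 209.5, 140.7, 182 and 156.1 normalised reads in KT09 pools, against 494.4, 612.4, 308.3 and 212.3 in control pools (limma log2 difference -1.14, adjusted p = 0.0145), and six3a fell by 1.12 on the log2 scale (adjusted p = 0.00702). otx2b, a head homeobox gene that the anterior neural plate shares with the prechordal plate, had authors' means of 385.7 in KT09 embryos and 2471 in control embryos, and otx1 1547 in KT09 embryos and 3555 in control embryos, without a test. The prechordal genes prdm1a (2324 in KT09 embryos, 3254 in control embryos) and frzb (1318 in KT09 embryos, 1785 in control embryos) were within 1.5-fold. In the other direction, tdgf1 had 1924.5 in KT09 embryos and 1191.6 in control embryos, 1.61 times the control mean, without a test. The KT09 means of fzd8b and fzd8a were 1.15 and 0.94 times the control mean, also without a test.

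**Figure D4:**
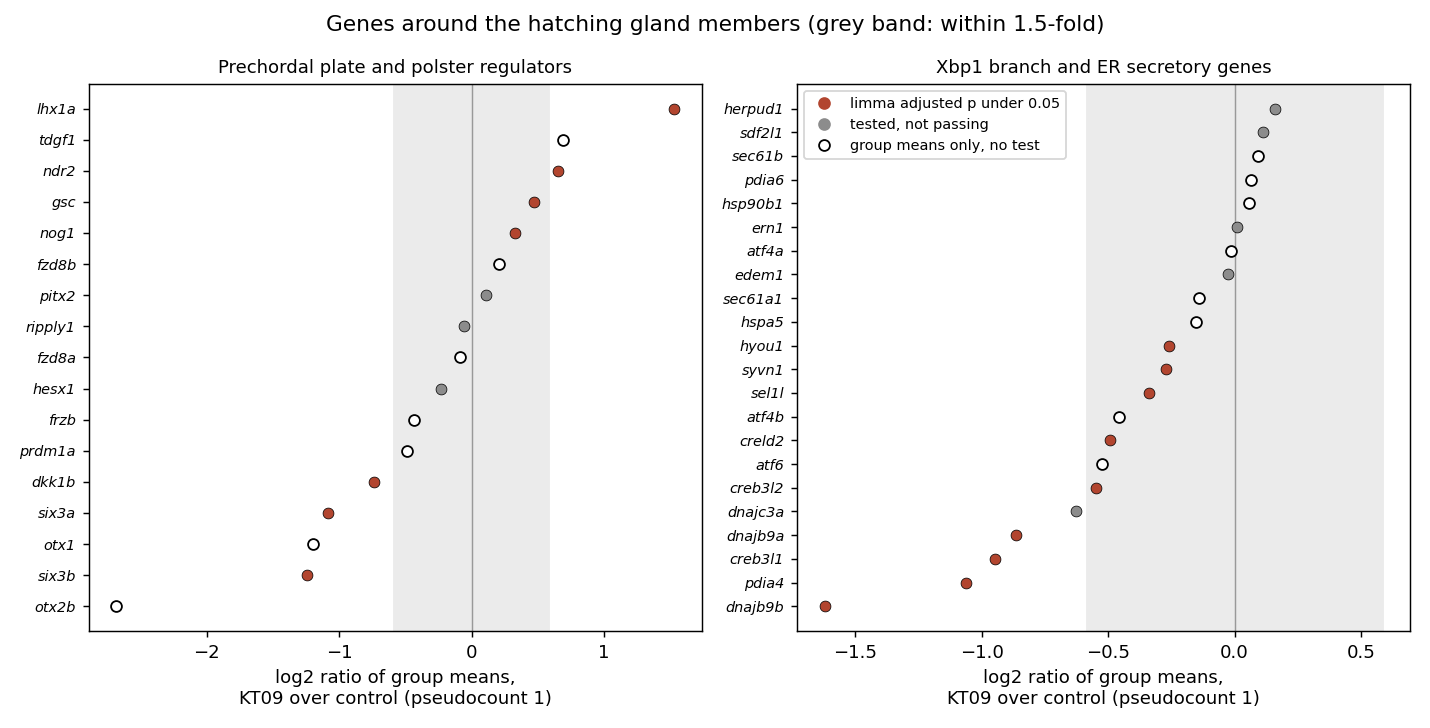
Log2 ratio of the authors' group means, KT09 over control, for 17 prechordal plate and polster regulators and 22 Xbp1 and ER genes with a mean of 10 or more. Red points passed the limma test on pool values, grey points did not, and open points had only group means; in the ER list 9 genes passed and all of them are lower in KT09 embryos, while the regulators passed in both directions.

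The paper picked slc39a7 and a gene written sp63, read here as tp63, from the genes that fell in these samples. It cites earlier work for the need of the hatching gland for both genes. As they were picked from these samples, they are no independent evidence of a direction. slc39a7, a zinc transporter of the ER and Golgi, had 867.4, 878.5, 579.4 and 743.7 normalised reads in KT09 pools, against 1739, 1884, 1749 and 1399 in control pools (limma log2 difference -1.15, adjusted p = 0.000522). tp63, a transcription factor of the epidermis, had 177.8, 181.8, 120.4 and 101 in KT09 pools, against 1109, 1230, 849.5 and 808.8 in control pools (log2 difference -2.80, adjusted p = 0.000113). In slc39a7, tp63, agr1 and cd63 no KT09 pool reached a control pool, which was also the case in 18.9% of the 13053 genes tested.

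Markers of other tissues moved too, and their part in the results above was not tested. Beside the counts below, 13.8% of all genes with a mean of 10 or more were over 1.5-fold higher and 15.1% over 1.5-fold lower. Summed over the list, 7 notochord markers had 11393 normalised reads in KT09 embryos and 7121 in control embryos. The higher sum rested on tbxta, with 9804 in KT09 embryos and 5375 in control embryos, without a test. Of 6 notochord markers with known reads, 1 rose and 2 fell, beside 14.9% and 19.1% of all genes tested. noto rose (limma log2 difference 0.44, adjusted p = 0.00207), while shhb (-1.47, adjusted p = 0.00302) and twist2 (-0.94, adjusted p = 0.00774) fell. The sum of 6 endoderm markers, the tissue that shares foxa3, was 6868 in KT09 embryos and 5189 in control embryos, with 4 of 6 over 1.5-fold higher. These 4 were mixl1 (limma log2 difference 2.21, adjusted p = 0.00116), hhex (0.60, adjusted p = 0.0377), sox32 and cxcr4a. The call of hhex held in 2 of 8 fits that left out a pool. The means of sox32 (2168, control 1309) and cxcr4a (1968, control 1182) had no test. Lower means in KT09 embryos, within 1.5-fold, were those of sox17 (719.7, control 842.9) and gata5 (1351, control 1693). The enveloping layer, which expresses keratins at high levels, had a sum of 239291 in KT09 embryos and 228526 in control embryos over 10 markers. Over 5 yolk syncytial layer markers with a mean of 10 or more, 0 were past 1.5-fold higher and 2 past 1.5-fold lower. The ventral and lateral ectoderm, where tp63 is expressed, had a sum of 14021 in KT09 embryos and 23891 in control embryos, with 4 of 6 markers over 1.5-fold lower. Germ cell markers, which are maternal transcripts at this stage in part, summed to 3064 in KT09 embryos and 1483 in control embryos. Most of this sum came from ddx4, with 2309 in KT09 embryos and 1004 in control embryos. Of 5 germ cell markers, 2 were over 1.5-fold higher and 0 over 1.5-fold lower. All 9 hatching gland and polster genes had reads in both groups. The enzyme gene he1.1, the most specific marker of the gland among them, had at most 38 reads in a pool at this stage.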

How the data were processed

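Polyadenylated RNA of 4 KT09 and 4 control pools was sequenced from stranded libraries. The submitters' processing notes name GRCz11 and DESeq2. The deposited table gives signal values: the authors' means, over the KT09 group, the control group or all pools, of counts divided by size factors, printed to 15 significant digits. Its other columns hold the authors' log2 fold change, its standard error, their test statistic and p-values, which were not used. The total depth per pool is unknown, and only a relative depth was obtained.

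A group mean is a weighted sum of 4 whole read counts. The weight of a read in each pool was found from the steps between means of scarce genes, and every set of 4 counts that gives the printed mean was enumerated. A single set was found for 23331 of 24289 genes with group means of at most 2000, including all 16452 genes with a mean under 100, and 0 genes had no set. In simulated data the reads of 400 of 400 genes (mean under 1000) were recovered in all 8 pools. The weights were supplied in this simulation, so it did not test how they were found, and it did not cover genes with higher means.

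Log2(normalised count + 1) was compared with limma 3.58.1 (trended empirical Bayes, R 4.3.3) over 13053 genes with a mean of 10 or more and known reads, with Benjamini-Hochberg adjustment over all of them and calls at an adjusted p under 0.05. Of these genes, 1950 were called higher and 2491 lower. Exact permutation tests were two-sided over 70 arrangements. Of genes without known reads, the ratio of group means was described at 1.5-fold. Folds and multiples of the control level are plain ratios of the means. Log2 ratios and log2 differences are on the log2(value + 1) scale. In scarce genes this brings the log2 ratio of group means nearer to 0. A log2 difference is a difference of means of log2 values, so a pool with few or no reads can enlarge it. For ENSDARG00000074306 the log2 difference was -3.03, while the log2 ratio of group means was -2.04. The paper says of its experiments in general that clutches of different parents were used, and the labels do not tie single pools to clutches.

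The members and the gene lists were chosen with earlier results of these data known. From each list of related genes, up to 4 genes with a mean of 10 or more and the largest change of group means were named. To these were added slc39a7 and tp63. Of the markers of other tissues, those of endoderm were named by this rule. For the remaining tissues sums or counts are given, and tbxta, noto, shhb, twist2 and ddx4 were named after their values were seen. lgmn, gsc, ndr2, nog1, dkk1b, six3a, prdm1a, frzb, the scarce relatives of he1.1, agr2, hoxb9a and the neighbours of ctslb were named after their values were seen. The same holds for edem1, ern1, herpud1, sdf2l1, dnajc3a, hspa5, hsp90b1, sox17 and gata5. It also holds for tdgf1, fzd8a, fzd8b, bmp4, smad7, smad9 and bmpr1ab. RefSeq (GRCz12tu) served for names and gene order only, and no sequences or coordinates are given. Of the list symbols, cd53, klf5a, klf18 and mtp were not matched. Alternatives were other pseudocounts, folds, scalings and filters, the sum of the ctslb entries, and leaving out pools. Python 3.11.15, numpy 2.4.6, pandas 2.3.3, numba 0.67.0, scipy 1.17.1 and matplotlib 3.10.9 were used.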

Additional observations from a re-analysis of the deposited data

Results flagged for a closer look

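In 4 of 117 groups of 4 pools examined, a pool stood apart from the other 3 of its group by more than Dixon's 95% limit for the gap over the range. Chance gives about 1 in 20 groups, so the number of such groups is not above chance. For ctslb (ENSDARG00000039173), KT09 pool 1 had 626.9 normalised reads and the next highest KT09 pool 241.8. For its neighbour si:dkey-239j18.2, KT09 pool 1 had 196.7 and the next highest KT09 pool 62.6. ctslb and si:dkey-239j18.2 are close copies whose reads were not told apart here. For tspan3a, KT09 pool 3 was the lowest at 38.2, with the next at 74.7. For the germ cell gene dazl, KT09 pool 1 was the lowest at 44.7, with the next at 65.6.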

How the results depend on the processing

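The direction of each of the 9 genes' ratio of group means was unchanged under other pseudocounts, both other scalings and the sum of the ctslb entries, and no result reversed. With a fold of 1.3 in place of 1.5, 2 of the 9 genes counted as higher (ctsla and foxa3). Over the 143 genes of the lists, 35 were higher at a fold of 1.3 and 5 at a fold of 2, and 19 were lower at a fold of 2. Over all genes, 45.9% were past a fold of 1.3 and 12.3% past a fold of 2. Leaving out single pools, 3 to 4 of the 4 members with known reads were called, the change being he1.1 without control pool 4. Without both KT09 pool 1 and control pool 4, an alternative chosen after seeing the data, he1.1 had a log2 difference of -2.65 (limma adjusted p = 0.0476) and ctslb one of -2.58 (adjusted p = 0.000162). ENSDARG00000087651 was called in 2 and ENSDARG00000074306 in 4 of 8 fits that left out a pool. The fits of the related lists and the neighbours of ctslb without pools were also chosen after seeing the data. With pools left out, 1368 to 1947 genes were called higher and 1821 to 2528 lower. No paired analysis was possible because the recovered pools carry no replicate numbers. Depth limits he1.1 most, with 0 to 38 reads per pool, and ctsla, xbp1, foxa3 and bambia have no error.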
